A study of Mus musculus with 16 samples.

Results

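The nuclear genes that encode subunits of the 5 complexes of oxidative phosphorylation were examined in mouse dorsal root ganglia. They were taken by name, as every gene whose symbol starts with Nduf and a, b, c, s or v and a digit, with Uqcr, with Cox4 to Cox8 or with Atp5, together with Sdha, Sdhb, Sdhc and Sdhd. This gave 83 of 53379 gene IDs, all of them protein-coding, after 6 rows named as pseudogenes had been left out. Complex I held 35 of them, complex II 4, complex III 8, complex IV 20 and complex V, the ATP synthase, 16. Ndufa4 and Ndufa4l2, named after complex I, were counted with complex IV, where the protein of Ndufa4 is found. The name rule also takes Cox7a2l, a factor that joins complexes III and IV, and Atp5s, coupling factor B, neither of which is a core subunit.

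All 16 libraries came from naive 8 to 12 week old mice on a C57BL/6J background that carried both Nav1.8Cre and the Rosa26fstrap allele, so that no library came from mice without the tag. Cre under the Scn10a (Nav1.8) promoter turns on ribosomal protein L10a tagged with EGFP in the pain-sensing neurons that use this promoter, so the tag is limited to neurons in which this promoter has been active. Male and female littermates were used, and ganglia of 3 mice of one sex went into each pool, with 4 female and 4 male pools (24 mice). Each pool gave an IP library, made from RNA that came down with the tagged ribosomes, and an IN library, made from total RNA of the whole ganglion. The 4 groups were thus female IP, male IP, female IN and male IN, with 4 libraries each. The deposited values were TPM, shares of a library's transcripts corrected for gene length. Because the make-up of IP and IN differed, they were scaled here by the median ratio over all tested genes, so that a change is a change relative to the median gene. Sequencing depth is unknown from TPM, and no interval that needs it is given.

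Complexes I, III and IV pass electrons from NADH to oxygen and pump protons across the inner mitochondrial membrane, and complex V uses the proton gradient to make ATP. Complex II, which is also an enzyme of the tricarboxylic acid cycle, feeds electrons from succinate into the chain and pumps no protons. Complexes I, III, IV and V join nuclear subunits with subunits made from mitochondrial DNA inside the organelle, whereas all subunits of complex II are nuclear. Sensory neurons with long axons rely on this system for ion pumping and transport.

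The IP libraries carried the genes of the tagged neurons and less of other cells. All 10 nociceptor markers rose in IP (summed level 2828 to 4032 scaled TPM in IP and 1085 to 1314 in IN), and 7 of 8 markers of large-diameter neurons fell. Every tested marker of satellite glia (8), myelinating Schwann cells (8), skeletal muscle (12), brown adipocytes (4), fibroblasts (6), endothelial and mural cells (8), macrophages (5) and erythrocytes (5) fell. The share of deposited TPM in nuclear protein-coding genes was 44.9% to 79.5% in IP and 9.58% to 13.3% in IN. The IP library of female pool 2 stood apart, with the lowest such share, and with 247 scaled TPM of summed muscle markers against 6.72 to 58.6 in the other 7 IP libraries. In bulk RNA, fewer cells of a type and less RNA per cell cannot be told apart. The p-values rest on the spread between pools.

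Most nuclear subunit genes were higher in RNA from the tagged ribosomes than in total RNA of the whole ganglion. Cell type and ribosome binding differ together between IP and IN, so their parts in a change cannot be told apart. Of the 77 members tested, 66 rose and 2 fell in IP against IN, while 40.5% of all 16099 genes tested rose and 38.9% fell (limma with the pool as a block, Benjamini-Hochberg adjusted p under 0.05). The median change of the members was 0.53 on the log2 scale, against 0.02 for all tested genes. The rises were moderate: 2 members changed by 2-fold or more upwards, Atp5l and Ndufv3, and 3.11% of all genes did. In 56 members IP was above IN in all 8 pools (33.2% of all genes), and in 36 members all 8 IP libraries lay above all 8 IN libraries (22.4% of all genes). Cox7a1 was the one tested member with all 8 IP libraries below all 8 IN libraries (26% of all genes). Of the other 6 members, which were under the filter of a mean of 1 deposited TPM in both fractions, Cox8c was listed at 0 in every library, and Cox4i2, Cox6a2, Cox6b2, Cox7b2 and Ndufa4l2 were low.

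**Figure D1:**
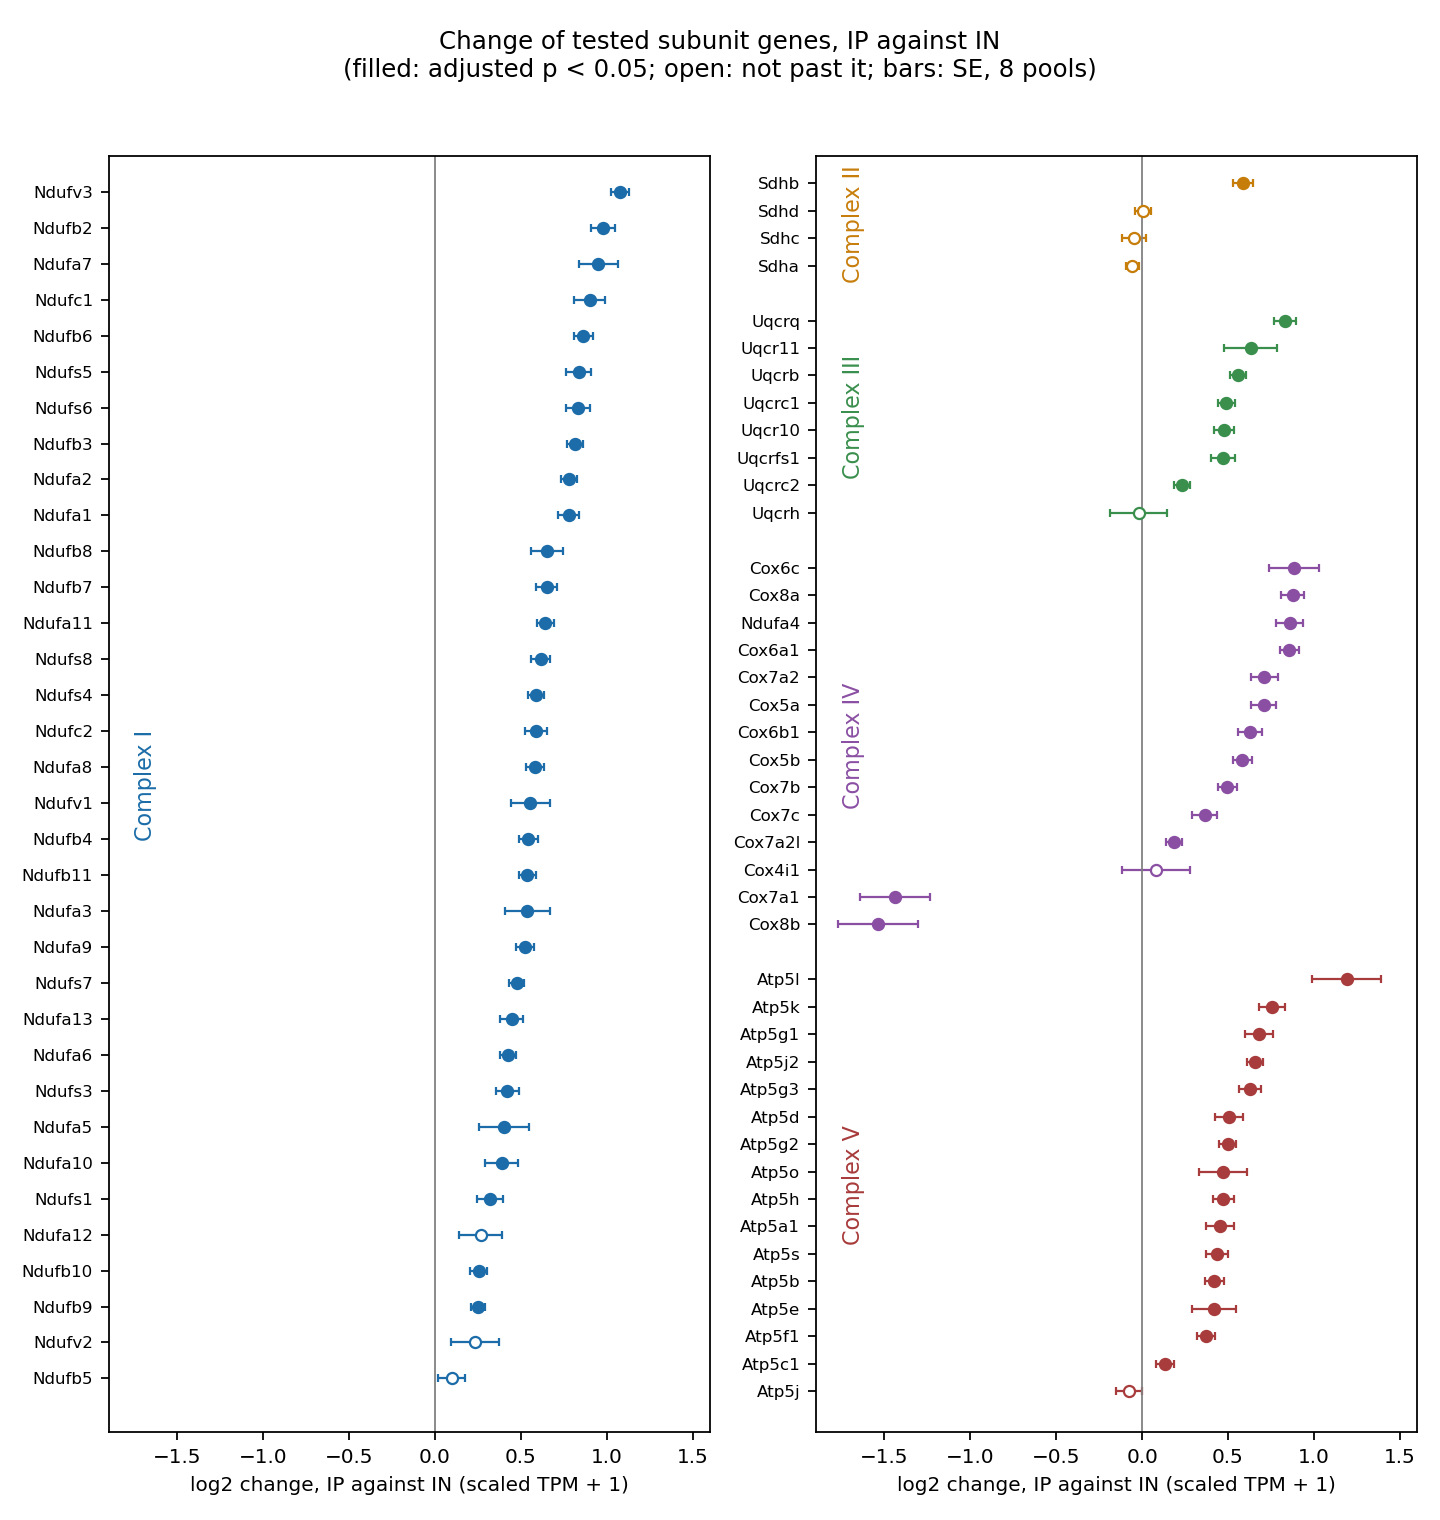
Log2 change of 76 of the 77 tested subunit genes, IP against IN, with the SE of the fit over 8 pools. Filled points passed an adjusted p of 0.05. All but 6 points lie right of 0, 3 of 4 complex II genes sit near 0, and Cox7a1 and Cox8b stand far to the left.

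The summed levels of complexes I, III, IV and V give the same picture on a scale of transcripts. The 35 complex I genes summed to 2620 ± 197 scaled TPM in IP and 1716 ± 58.5 in IN (mean ± SD, n = 8 libraries each), a ratio of 1.53 that was above 1 in 8 of 8 pools. Complex IV summed to 2250.1 ± 195 in IP and 1475 ± 107 in IN (ratio 1.53), and complex V to 2134 ± 134 in IP and 1516 ± 63.4 in IN (1.41). The 8 complex III genes summed to 683 ± 56.3 in IP and 519 ± 40.0 in IN (1.31). Complex II stood at 205 ± 10.2 in IP and 187 ± 10.7 in IN, a ratio of 1.10. Its sum was higher in IP in 8 of 8 pools, although only Sdhb of its 4 genes was called higher. When the sums were instead expressed as a share of all nuclear protein-coding TPM of a library, complex I held 0.876% in IP and 0.678% in IN and was higher in 8 of 8 pools. The complex II share was 0.0689% in IP and 0.0739% in IN and was lower in IP in 8 of 8 pools, the opposite direction to its scaled sum. Complex III held 0.228% in IP and 0.205% in IN and was higher in IP in 7 of 8 pools. All 83 members together held 2.64% ± 0.0950 of nuclear protein-coding TPM in IP and 2.14% ± 0.0883 in IN.

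**Figure D2:**
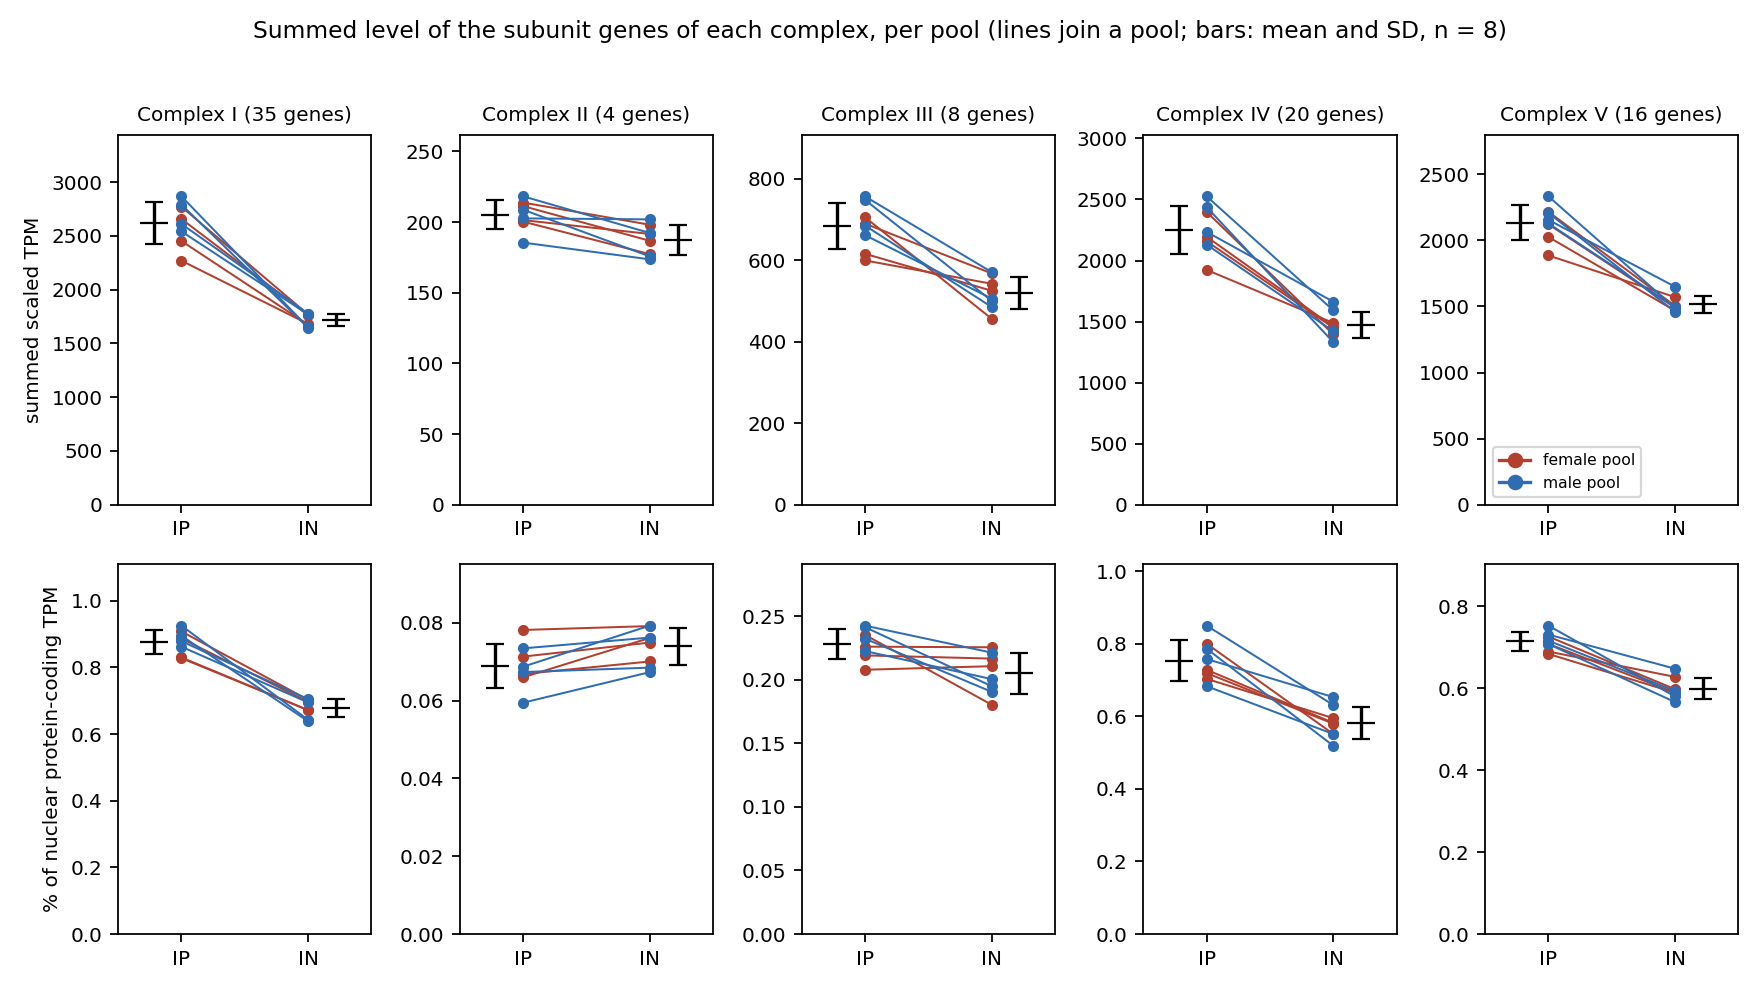
Summed level of the genes of each complex in IP and IN, with a line for each of the 8 pools and the mean and SD beside it. The upper row gives scaled TPM and the lower row the percent of nuclear protein-coding TPM; complex II runs down from IP to IN in the upper row and up in the lower row, while complex I is higher in IP in both.

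The promoters of these genes are known for sites of the factors NRF1, GABPA (an ETS factor, also called NRF2) and YY1. RefSeq promoter windows (GRCm38.p6, 250 bases before to 50 after the start, both strands searched) were matched for 68 of the 83 members, 66 by symbol and 2 by a synonym. They had 73 windows, with more than 1 for Atp5c1, Atp5d, Atp5j, Ndufa5 and Ndufa7, and a gene was counted where any of its windows held the motif. The NRF1 motif was found for 17 of the 68 members (25%) and for 5.19% of 27025 genes. The ETS motif CCGGAAG was found for 16 members (23.5%), against 9.93% of all genes, and the YY1 motif AANATGGC for 17 (25%), against 6.96%. At least 1 of the 3 was found for 43 members (63.2%) and for 19.4% of all genes. The 27025 genes were all those with a RefSeq promoter window, with no filter on gene type or on expression in these libraries. Shares among expressed protein-coding genes were not computed, so these gaps cannot be read as particular to the members. As a description, the median log2 change of IP against IN was 0.50 with and 0.54 without the NRF1 motif, 0.62 with and 0.52 without the ETS motif, and 0.54 both with and without the YY1 motif. Among those not matched were Atp5a1, Cox4i1, Cox4i2, Cox6a2, Cox6c, Cox8c, Ndufa2, Ndufa4l2, Ndufb9, Ndufs1, Sdhc, Uqcrb, Uqcrc2 and Uqcrq.

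Stretches from 250 to 41 bases before the start are shown for Cox6a1, a subunit gene of most tissues that rose in IP, for Cox8b, a muscle-type gene that fell, and for Sdha, the catalytic gene of complex II that did not pass the test. Sequences are RefSeq's, 5′ to 3′ on the gene's strand, and capitals mark matches to the NRF1 motif.
Cox6a1, chr5:115348999-115349208, minus strand: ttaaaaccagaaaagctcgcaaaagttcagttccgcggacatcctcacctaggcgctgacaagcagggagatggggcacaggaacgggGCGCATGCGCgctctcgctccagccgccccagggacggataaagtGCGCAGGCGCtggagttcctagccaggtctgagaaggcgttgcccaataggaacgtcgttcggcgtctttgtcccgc
Cox8b, chr7:140900487-140900696, minus strand: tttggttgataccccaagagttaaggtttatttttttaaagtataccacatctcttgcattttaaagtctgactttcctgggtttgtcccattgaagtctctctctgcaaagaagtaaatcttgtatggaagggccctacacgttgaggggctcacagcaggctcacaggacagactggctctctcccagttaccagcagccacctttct
Sdha, chr13:74350281-74350490, minus strand: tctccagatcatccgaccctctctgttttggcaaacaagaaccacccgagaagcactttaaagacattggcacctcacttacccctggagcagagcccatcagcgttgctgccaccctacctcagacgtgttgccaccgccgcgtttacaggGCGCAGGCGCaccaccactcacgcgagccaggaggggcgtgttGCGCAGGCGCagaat
The Cox6a1 and Sdha stretches each held 2 NRF1 matches, although their genes changed by different amounts (log2 0.86 and -0.06), and the Cox8b stretch held no match to any of the 3 motifs. A match is a description of the letters and not of a bound site.

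Complex I oxidises NADH and has 2 arms, a matrix arm that carries the electron path and a membrane arm that pumps protons. Of its 35 nuclear genes 32 rose and 0 fell in IP, with a median log2 change of 0.56. Ndufv3 (chromosome 17, 31520115 to 31531326, GRCm38), an accessory subunit at the NADH-oxidising tip, changed most. It ran from 130.3 to 184 scaled TPM in IP (median 155), against 71.4 to 80.4 in IN (median 72.1), so that the fractions did not overlap. The log2 change of 1.08 ± 0.05 (SE, adjusted p = 6.0e-08) corresponds to 2.11-fold.

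The other large rises of complex I were in small accessory subunits. Ndufb2, of the membrane arm, was at 50.4 ± 6.50 scaled TPM in IP and 25.0 ± 2.94 in IN (mean ± SD, n = 8 libraries each; log2 change 0.98 ± 0.07 (SE), adjusted p = 4.7e-07) and did not overlap between fractions. Ndufa7, of the matrix arm, averaged 115 ± 7.51 scaled TPM in IP and 59.7 ± 10.3 in IN (log2 change 0.95 ± 0.11 (SE), adjusted p = 2.1e-05), again with no overlap. Ndufb2 overlaps Braf on the other strand, which was at 36.6% of its level, and the sources used here do not give the strand setting of the counting, so reads of such pairs cannot be told apart. Ndufb8, a membrane arm subunit often used to gauge complex I, had the highest level of the complex (180.4 ± 37.5 scaled TPM in IP and 114 ± 17.9 in IN) and rose by 0.65 on the log2 scale.

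The nuclear core subunits described here include those that hold the flavin and iron-sulphur clusters. Ndufv3, Ndufb2 and Ndufa7 were named for having the largest changes of the complex, so the core genes cannot be set against them. The median log2 change of all 35 complex I genes was 0.56. Ndufv1, the NADH-binding flavoprotein gene, changed by 0.56 ± 0.11 and Ndufs8, an iron-sulphur protein gene near the quinone site, by 0.62 ± 0.06 (log2, SE). Ndufs7 (0.48), Ndufs3 (0.42) and Ndufs1 (0.32), the largest subunit of the matrix arm, passed the test too. Ndufs1 overlaps Eef1b2, a translation factor gene on the other strand at 84.0% of its level. Ndufv2, an iron-sulphur protein gene of the core, did not pass (0.23 ± 0.14, adjusted p = 0.14). Its IP level in female pool 4 was 28.3 scaled TPM against 46.5 in IN, the one pool where IP was lower. Without that pool the change was 0.37, but the pool was singled out by this value, so no call is drawn from that fit. With quantile normalization of all pools the change was -0.00297.

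Also without a call were Ndufa12, an accessory subunit of the matrix arm (0.27 ± 0.12, adjusted p = 0.072), and Ndufb5, of the membrane arm (0.10 ± 0.08, adjusted p = 0.26). Ndufa12 fell into separate levels within the fractions. In IP it was at 19.8, 22.1, 38.9 and 36.8 scaled TPM in female and 20.2, 34.2, 39.2 and 22.4 in male pools. In IN it was 40.6 scaled TPM in female pool 3 and 20.5 to 22.4 in the other 7 libraries. Female pool 3 was thus high in both fractions, and the fractions overlapped.

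Complex II oxidises succinate with 4 subunits. It was the complex whose genes moved least as a group: 1 of 4 rose, 0 fell, and the median log2 change was -0.02. Sdhb (chromosome 4, 140961203 to 140979193), the iron-sulphur subunit gene, ran from 48.8 to 75.6 scaled TPM in IP (median 65.8), against 28.2 to 53.8 in IN (median 42.4). The fractions overlapped in range, yet IP was higher in 8 of 8 pools, and the log2 change was 0.59 ± 0.06 (SE, adjusted p = 4.4e-06). Sdha, the flavoprotein gene that carries the succinate site, was level at 73.5 ± 2.43 scaled TPM in IP and 76.5 ± 3.62 in IN (log2 change -0.06 ± 0.04 (SE), adjusted p = 0.2) and was lower in IP in 7 of 8 pools. The membrane anchor genes had log2 changes of -0.05 ± 0.07 for Sdhc, at 17.3 ± 2.76 scaled TPM in IP and 17.8 ± 1.31 in IN, and 0.01 ± 0.05 for Sdhd, at 50.4 ± 3.40 scaled TPM in IP and 50.1 ± 1.89 in IN, neither past the test. The direction of these 3 genes rests on the scaling. With TPM rescaled to the nuclear protein-coding total, where the median of all genes was at -0.17, Sdha (-0.29), Sdhc (-0.27) and Sdhd (-0.23) were called lower, whereas Sdhb was still called higher.

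Complex III passes electrons from quinol to cytochrome c. Of its 8 genes 7 rose and 0 fell, with a median log2 change of 0.48. Uqcrq, a small subunit next to cytochrome b, rose most and lay from 49.4 to 69.7 scaled TPM in IP (median 61.5), against 26.0 to 41.9 in IN (median 33.9), with no overlap (log2 change 0.83 ± 0.06 (SE), adjusted p = 8.5e-07). Uqcrfs1, which encodes the Rieske iron-sulphur protein of the electron path, averaged 62.0 ± 8.15 scaled TPM in IP and 44.2 ± 3.11 in IN and rose by 0.47 (log2). The 2 large core proteins of the matrix side had log2 changes of 0.49 ± 0.05 for Uqcrc1 and 0.23 ± 0.05 for Uqcrc2, and the small subunit gene Uqcrb changed by 0.56 ± 0.05. The call for Uqcrc2 was lost with quantile normalization (-0.03, adjusted p = 0.61).

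Uqcrh, the hinge protein gene that docks cytochrome c1, was the exception. In IP it was at 130.0, 94.9, 98.4 and 122 scaled TPM in female and 114, 178, 125 and 107 in male pools. In IN it was at 88.5, 104, 179.7 and 189 scaled TPM in female and 79.9, 209, 81.2 and 106 in male pools. Female pools 3 and 4 and male pool 2 were high in IN, the fractions overlapped, and the log2 change of -0.02 ± 0.17 did not pass (adjusted p = 0.92). The gene shares sequence with Uqcrh-ps1, a pseudogene row listed at 16.8 ± 2.54 scaled TPM in IP and 11.3 ± 1.58 in IN, so its level is uncertain. Uqcr11, the smallest subunit, was also uneven in IN, with 109 and 106 scaled TPM in female pool 2 and male pool 3 and 41.5 to 65.9 in the others, and rose by 0.63 ± 0.15 (adjusted p = 0.0032). It was lower in IP in female pool 2.

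Complex IV, cytochrome c oxidase, is the complex with the most tissue-specific subunit isoforms, and here it split by isoform. Of 14 tested genes 11 rose and 2 fell, and the 2 that fell were muscle-type isoforms (median log2 change 0.61). Cox8a, the form found in most tissues, lay from 269 to 341 scaled TPM in IP (median 313), against 146 to 205 in IN (median 164) and did not overlap (log2 change 0.88 ± 0.07 (SE), adjusted p = 8.8e-07). Cox6a1 (chromosome 5, 115345642 to 115348981), the form of most tissues other than heart and muscle, averaged 258 ± 18.8 scaled TPM in IP and 142 ± 9.37 in IN (log2 change 0.86 ± 0.05 (SE), adjusted p = 2.1e-07), also with no overlap. Ndufa4 was at 223 ± 32.1 scaled TPM in IP and 122 ± 9.86 in IN (log2 change 0.86 ± 0.08 (SE), adjusted p = 2.8e-06). Cox6c rose by 0.89 ± 0.14, but its libraries were spread widely, from 116 to 239.8 scaled TPM in IP (median 209), against 69.2 to 138 in IN (median 111). Cox7a2 (0.71 ± 0.08), Cox6b1 (0.63 ± 0.07) and Cox7b (0.50 ± 0.05), the forms used in most tissues, rose as well. Cox7a2l changed least among those called (0.18 ± 0.05) and was called lower with quantile normalization (-0.16, adjusted p = 0.011).

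Cox7a1 (chromosome 7, 30184144 to 30186078), the heart and skeletal muscle form of subunit 7a, was listed at 0, 3.06, 1.52 and 1.81 scaled TPM in female and 2.22, 1.70, 2.19 and 2.17 in male pools in IP. The IN libraries were at 6.55, 7.66, 5.11 and 7.53 scaled TPM in female and 7.81, 3.14, 5.96 and 7.46 in male pools. Every IP library lay below every IN library, and the log2 change was -1.44 ± 0.20 (SE, adjusted p = 7.4e-05). Cox8b, the muscle form of subunit 8, was listed at 0, 2.83, 0 and 0.983 scaled TPM in female and 0.509, 0, 0 and 0.226 in male pools in IP. The IN libraries were at 2.74, 6.04, 2.75 and 4.02 scaled TPM in female and 6.23, 0, 3.90 and 3.04 in male pools, so that male pool 2 was at 0 in both fractions (log2 change -1.54 ± 0.23 (SE), adjusted p = 1.3e-04). With deposited TPM and no scaling, where the median of all genes was 1.84, Cox7a1 was at 0.20 and no longer called lower, while Cox8b was still called lower.

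Of the isoforms under the filter, 3 were lower in IP and 3 showed no such difference in range. Cox6a2, the heart and skeletal muscle form of subunit 6a, was listed at 0, 1.06, 0.218 and 0 scaled TPM in female and 0, 0, 0.400 and 0 in male pools in IP. In IN its values were 1.63, 1.69, 1.34 and 1.40 scaled TPM in female and 1.98, 0.481, 3.79 and 1.97 in male pools, higher in 8 of 8 pools. Cox6b2, known from testis, was at 0 to 0.376 scaled TPM in IP and 0.972 to 1.83 in IN. Ndufa4l2, the low-oxygen relative of Ndufa4, was at 0.0435 to 0.258 in IP and 0.383 to 0.949 in IN, but it overlaps Shmt2, which was more abundant. Neither pair of ranges overlapped. Without the filter on low values Cox6a2, Cox6b2 and Ndufa4l2 were called lower as well. Cox4i2, the lung form of subunit 4, was at 0.291 to 0.598 in IP and 0.298 to 0.678 in IN, with overlap, and Cox7b2 reached at most 0.135 in IP and 0.335 in IN.

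The muscle markers fell in IP as well. All 12 skeletal muscle markers fell (median log2 change -2.12), and their summed level was 15.8, 247, 18.4 and 27.5 scaled TPM in female and 53.2, 6.72, 58.6 and 25.9 in male IP libraries. The same sum in IN was 184, 284, 187 and 197 in female and 501, 53.6, 567 and 356 in male libraries. The IP library with the most marker RNA, female pool 2, also had the highest Cox7a1, Cox8b and Cox6a2 of the IP libraries, and the IN library with the least, male pool 2, had the lowest of each in IN. The other extremes did not match for every gene: male pool 3, with the highest marker sum in IN, had 5.96 scaled TPM of Cox7a1 and 3.90 of Cox8b, neither the highest in IN, and male pool 2, with the lowest sum in IP, had 1.70 of Cox7a1 where female pool 1 was at 0. Female pool 2 also had the highest IP sums, and male pool 2 the lowest IN sums, of brown adipocyte, macrophage and erythrocyte markers. The 4 tested brown adipocyte markers fell too (summed level 1.19 to 10.9 in IP and 6.47 to 47.1 in IN). The part of muscle or fat RNA in the isoform result was not tested.

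**Figure D3:**
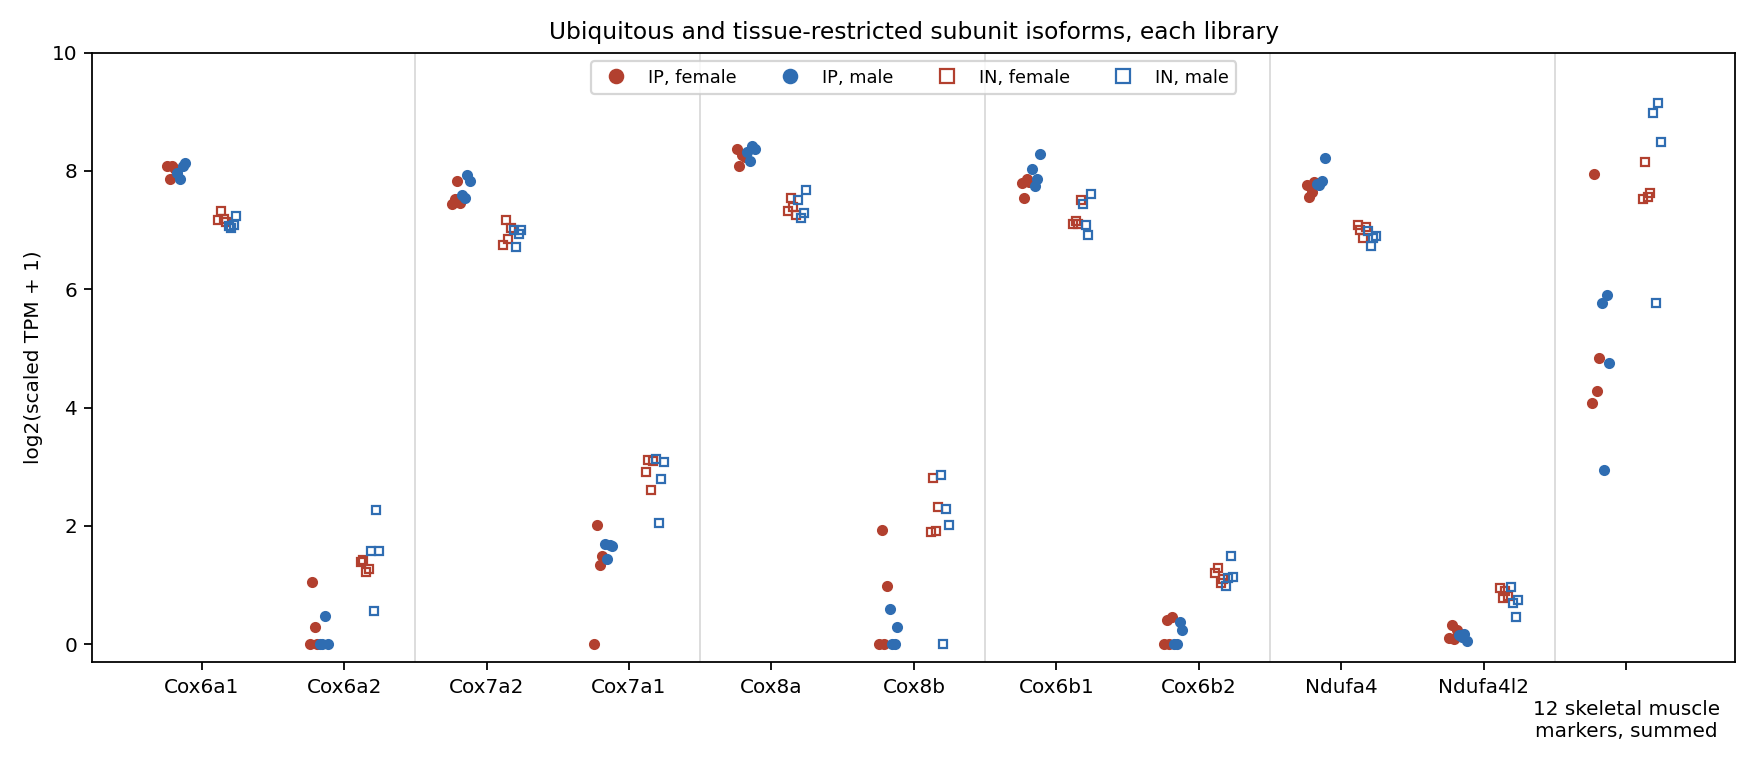
Levels of subunit isoforms in each of the 16 libraries as log2 of scaled TPM with 1 added, IP left of IN for each gene, with the summed skeletal muscle markers at the far right. Cox6a1, Cox7a2, Cox8a, Cox6b1 and Ndufa4 lie higher in IP, while Cox6a2, Cox7a1, Cox8b, Cox6b2, Ndufa4l2 and the muscle markers lie mostly lower in IP, with female pool 2 as the highest IP point of the markers.

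Cox4i1, which encodes the subunit 4 of most tissues and was among the most abundant members, showed no call. It was at 374, 220.0, 230.0 and 249 scaled TPM in female and 207, 260.5, 363 and 436 in male pools in IP. In IN it was at 193, 194, 312 and 274 scaled TPM in female and 367, 336, 182 and 353 in male pools. The order of the fractions differed between pools, with IP higher in 4 of 8, and the log2 change was 0.08 ± 0.20 (adjusted p = 0.71). Its row overlaps Emc8, a gene of the ER membrane protein complex on the other strand at 4.32% of its level.

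Complex V has a catalytic head, a rotor with a ring of c subunits and a stalk that holds the head. Of its 16 genes 15 rose and 0 fell, with a median log2 change of 0.47. Atp5b (chromosome 10, 128083273 to 128090391), the catalytic beta subunit gene and the most abundant member in both fractions, ran from 388 to 457 scaled TPM in IP (median 415), against 292 to 340.1 in IN (median 309). The fractions did not overlap, and the log2 change was 0.42 ± 0.06 (SE, adjusted p = 5.7e-05). Atp5a1, the alpha subunit gene, averaged 279 ± 38.4 scaled TPM in IP and 202 ± 15.1 in IN (log2 change 0.45 ± 0.08 (SE), adjusted p = 4.1e-04), while Atp5c1, the gamma subunit gene that forms the rotor shaft, changed by 0.13 ± 0.05 (adjusted p = 0.032). The Atp5c1 call was lost when any 1 of female pool 2 or male pools 2, 3 or 4 was left out, and without the pool block (adjusted p = 0.0504 to 0.305), and with quantile normalization it was called lower (-0.20, adjusted p = 0.0099).

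The largest rise of all members was that of Atp5l, the gene of subunit g of the membrane part, at 1.19 ± 0.20 (adjusted p = 2.7e-04). Its value is uncertain, because pseudogene rows of the same name, Atp5l-ps1, Atp5l-ps2 and Atp5l2-ps, were listed at 21.7, 6.60 and 32.1 scaled TPM in IP and 14.1, 4.02 and 18.4 in IN, and reads of near-identical copies can be split between them. In IP Atp5l was at 66.4, 30.3, 60.6 and 67.3 scaled TPM in female and 61.2, 35.0, 39.6 and 64.8 in male pools. The IN levels were 18.5, 22.8, 19.3 and 21.9 scaled TPM in female and 21.3, 36.6, 16.9 and 21.3 in male pools, and in male pool 2 IN was above IP. Atp5k, the subunit e gene, rose by 0.75 ± 0.08. Atp5j, which encodes the stalk factor F6, was the member without a call (-0.07 ± 0.08, adjusted p = 0.39) and was called lower under the length, quantile and protein-coding settings (-0.42 to -0.29). Its row overlaps Gabpa on the other strand, which was at 10.2% of its level.

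The 3 genes Atp5g1, Atp5g2 and Atp5g3 encode the same mature c subunit of the rotor ring with different import signals. Atp5g3 was the most abundant (268 ± 47.5 scaled TPM in IP and 171 ± 15.1 in IN), ahead of Atp5g1 (73.8 ± 27.8 scaled TPM in IP and 48.0 ± 20.9 in IN) and Atp5g2 (20.1 ± 1.15 scaled TPM in IP and 14.0 ± 1.34 in IN). All 3 rose, by 0.63, 0.68 and 0.50 on the log2 scale. Atp5g1 depended on the pool. In IP it was at 76.3, 84.2, 87.5 and 32.8 scaled TPM in female and 85.3, 28.1, 98.8 and 97.4 in male pools. In IN it was at 54.9, 63.1, 58.5 and 15.1 scaled TPM in female and 63.6, 13.8, 55.9 and 59.2 in male pools. Female pool 4 and male pool 2 were low in both fractions, whereas Atp5g2 in those pools was 21.9 and 18.3 scaled TPM in IP and 14.0 and 11.6 in IN, close to the rest. Its call rested on the pool block (adjusted p = 2.2e-05 with it and 0.12 without).

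Members were short. Their median transcript length was 659 bases, against 2217 for all tested protein-coding genes. In these data shorter protein-coding genes tended to be higher in IP. A gene's length here was the median over all its annotated protein-coding transcripts, and not that of the transcript expressed. Single genes can thus fall in a wrong class: Ndufs1, a large subunit, was listed at 651 bases and Ndufb2, a small one, at 2413. Compared within classes of this length, members were still above other protein-coding genes. From 500 to 750 bases the 34 members had a median log2 change of 0.64 with 31 called higher. The 945 other protein-coding genes were at 0.15 with 48.1% called higher. Under 500 bases the 12 members were at 0.51 and other genes at 0.20, from 750 to 1000 bases at 0.54 and 0.16, and from 1000 to 2000 bases at 0.40 and 0.10. With the trend on this length removed from each library, 55 members were called higher and 5 lower. The median was 0.35 where all genes were at 0.005, and 49.9% of 12344 calls over all genes were higher.

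The mitochondrially encoded partners of complexes I, III, IV and V went the other way from the nuclear subunits. All 13 fell in IP (median log2 change -5.23), and their summed level was 93.5 to 2299 scaled TPM in IP against 13976 to 20344 in IN. The highest IP sum was that of female pool 2, and the other 7 IP libraries were at 93.5 to 652. These RNAs are translated by mitochondrial ribosomes inside the organelle, and L10a belongs to cytosolic ribosomes. Of the nuclear subunits and carriers that the name rule misses, 5 of 6 tested rose and 0 fell (median 0.48). Atpif1, the inhibitor of the ATP synthase, was at 455 ± 62.1 scaled TPM in IP and 199.8 ± 14.2 in IN (log2 change 1.17 ± 0.07 (SE), adjusted p = 1.1e-07), and Ndufab1, the acyl carrier subunit of complex I, rose by 0.47. Cyc1, the cytochrome c1 gene of complex III, rose by 0.25, and Cycs, the cytochrome c gene, was at -0.03 ± 0.05 (adjusted p = 0.57). Cyct, its testis form, was listed at 0.

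Genes that build or supply the complexes were more mixed, and their counts stand against 40.5% of all tested genes called higher and 38.9% called lower. Of 46 assembly factor genes 26 rose and 6 fell (median log2 change 0.16). The largest rises were those of Cox17, the copper chaperone gene, at 1.22 ± 0.06 and Pet100, a complex IV factor, at 1.16 ± 0.09. Atpaf1, a factor for the ATP synthase head, was at -0.63 ± 0.05 and Sdhaf3, a complex II factor, at -0.57 ± 0.07, both called lower. In coenzyme Q synthesis 3 of 11 rose and 3 fell (median 0.00), from Coq4 at 0.37 to Pdss1, which makes the side chain, at -0.58. In the tricarboxylic acid cycle 7 of 18 rose and 3 fell (0.12), from the malate dehydrogenase gene Mdh2 at 0.46 to the succinyl-CoA ligase gene Suclg2 at -1.19. Among glycolysis genes 12 of 17 rose and 3 fell (0.55), with the lactate dehydrogenase genes Ldha at 1.03 and Ldhb at -1.27. Regulators of mitochondrial biogenesis gave 2 higher and 7 lower of 12 tested (-0.48). Ppargc1a, a coactivator that drives these genes, was at 1.44 ± 0.392 scaled TPM in IP and 5.73 ± 0.474 in IN (log2 change -1.48 ± 0.10 (SE), adjusted p = 2.4e-07), and Gabpa (-0.76), Yy1 (-0.61) and Nrf1 (-0.53) fell too, while Tfb1m (0.54), a mitochondrial RNA methyltransferase gene, rose.

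Most members rose in IP within each sex too. In the 4 female pools 57 members rose and 2 fell (32.6% and 33.4% of all genes), with a median log2 change of 0.49. In the 4 male pools 63 rose and 2 fell (35.3% and 35.2% of all genes), with a median of 0.55. Called higher in both sexes were 55 members, and Cox7a1 and Cox8b were called lower in both. The shares of all genes called higher or lower in both sexes were not computed, so these joint counts have no background beside them. Complex I medians were 0.52 in female and 0.58 in male pools, and complex IV medians 0.55 and 0.64. Of the 8 pools, female pool 2 had the lowest median over members (0.33) and male pool 3 the highest (0.69). Without female pool 2 the female count was 59 higher and the median 0.54.

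The direct comparisons of the sexes called no member. For female against male in IP, 0 of 77 members were called (0.0186% of all genes higher and 0.0311% lower, limma without a block), and 0 had an unadjusted p under 0.05 (2.25% of all genes). In IN 0 were called (0.0249% higher and 0.0559% lower of all genes) and 2 had an unadjusted p under 0.05 (4.81% of all genes). For the interaction, which asks whether the IP against IN change differed between females and males, 0 were called (0.0186% higher and 0% lower of all genes) and 1 had an unadjusted p under 0.05 (2.78% of all genes), so no count was above its background share. The smallest adjusted p of a member was 0.96 in IN and 1.0 in IP and in the interaction.

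The members with an unadjusted p under 0.05 were Uqcrq, Ndufa10 and Ndufa4. Uqcrq in IN was at 34.1, 30.9, 26.0 and 29.0 scaled TPM in the female pools and 33.8, 36.9, 40.1 and 41.9 in the male ones. Only female pool 1 lay above a male library, and the female minus male log2 difference was -0.34 ± 0.09 (unadjusted p = 0.0061, limma adjusted p = 0.96). Ndufa10, an accessory subunit of complex I, was at 58.7, 45.8, 48.0 and 57.0 in female and 47.8, 42.4, 42.7 and 46.9 in male IN libraries (0.21 ± 0.09, unadjusted p = 0.046 in limma). The Ndufa4 change of IP against IN was 0.69 ± 0.08 in female and 1.03 ± 0.10 in male pools, an interaction of -0.33 ± 0.12 (unadjusted p = 0.024 in limma, adjusted p = 1.0). Its IP level in male pool 4 was 296 scaled TPM, against 216 to 226 in the other male and 188 to 223 in the female IP libraries.

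As a description, 58 of 77 members were lower in female than in male IP libraries, with a median log2 difference of -0.07, while 49.4% of all tested genes were lower. Likewise 58 members had a smaller IP against IN change in female pools (50.6% of all genes). In IN 39 of 77 were lower in females and the median was -0.0041. The summed complex I level was 2537 ± 222 scaled TPM in female and 2702 ± 152 in male IP libraries (SD, n = 4 each), with ranges that overlapped. Without female pool 2 the median difference in IP was -0.05, and without male pool 3 it was -0.04. With quantile normalization it was -0.02, with all genes at -0.01, and with the protein-coding total -0.03, with all genes at 0.04. Genes of one pathway are not independent of each other, and these counts carry no test. The 13 mitochondrially encoded genes had a median female minus male difference of 0.86 in IP with 0 called, where female pool 2 had the highest and male pool 4 the lowest summed level.

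**Figure D4:**
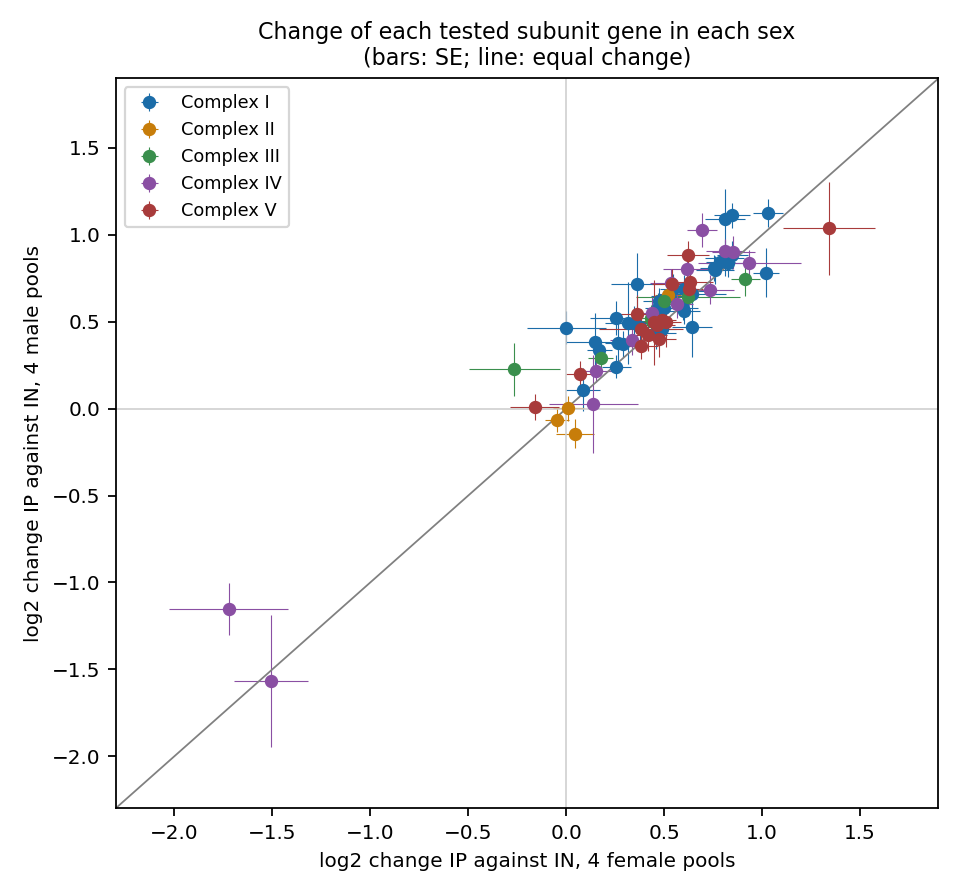
Log2 change of IP against IN for each of the 77 tested members in the 4 female pools (horizontal) and the 4 male pools (vertical), with SE bars and a line of equal change. Most points lie in the upper right near the line, 58 of the 77 above it, and Cox7a1 and Cox8b lie in the lower left.

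How far the members stood from other genes depended on how the fractions were put on one scale. With TPM rescaled to the nuclear protein-coding total, 54 members were called higher and 6 lower, with a median of 0.29 where all genes were at -0.17. Of 12521 calls over all genes 35.1% were then higher, against 51.0% of 12783 calls with the median of ratios. With quantile normalization (61.1% of all 12983 calls higher) 47 were called higher and 7 lower, with a median of 0.24 where all genes were at 0.15, the smallest distance of the settings tried. In the deposited TPM without scaling (94.0% of all 15558 calls higher) 75 were higher and 1 lower, with a median of 2.76 where all genes were at 1.84. Under each of 18 settings, the reported one included, 46 members were called higher, among them Ndufv3, Ndufb2, Ndufa7, Cox6a1, Cox8a, Cox7a2 and Atp5b. The other members called higher lost that call under at least 1 setting. The share of all tested genes called higher under every setting was not computed, so the 46 cannot be read as particular to the members.

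**Figure D5:**
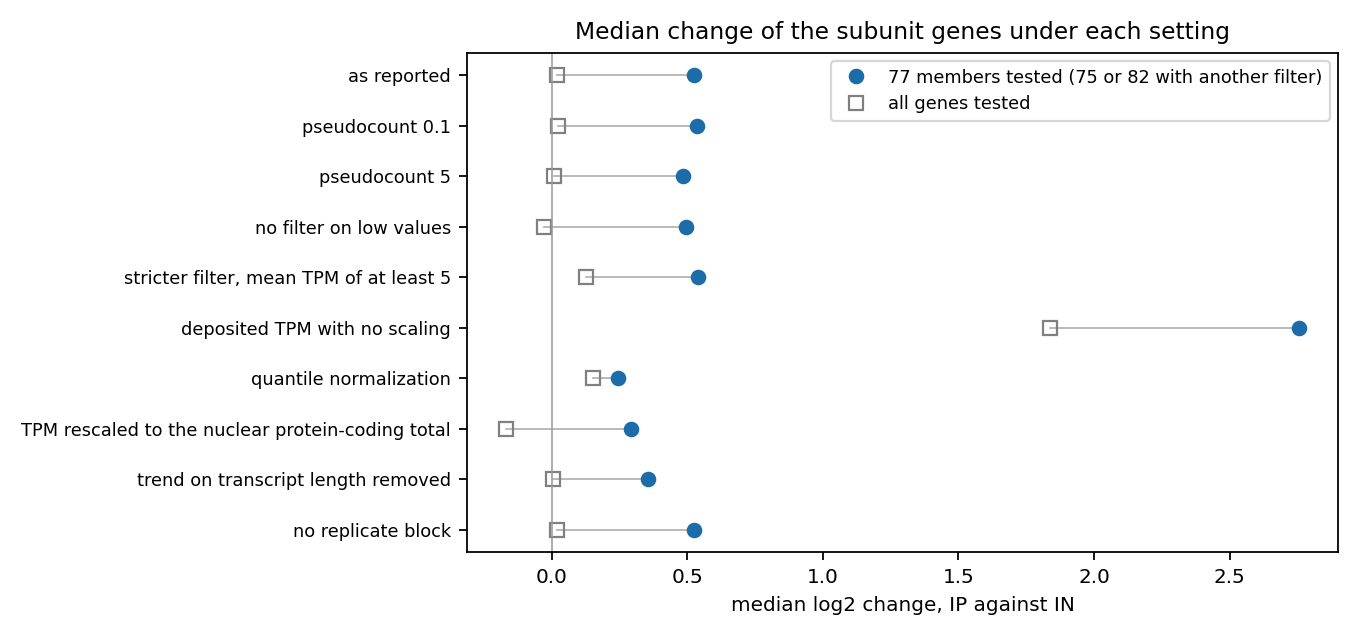
Median log2 change of IP against IN over the tested members (filled) and over all genes tested (open) under each way of processing. The members lie right of all genes in every row, by 0.92 with the deposited TPM and by 0.09 with quantile normalization.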

How the data were processed

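The 16 RNA-seq libraries of dorsal root ganglia were IP and IN libraries of 4 female and 4 male pools. Per the labels' protocols, RNA was taken up with a Direct-zol kit, and ribosomal RNA was depleted before the libraries were built. The submitters' processing notes name FastQC, STAR 2.2.1, StringTie 1.3.5 and the build GRCm38.p5, and no source used here gives the annotation release. The values the authors deposited per gene were read as TPM, because each library's column sums to 1000000. The file header is truncated, so the unit rests on that sum. Reads cannot be counted from TPM, so depth per sample is unknown and no test made for counts was used. Noncoding RNAs take most of the IN total in these TPM, which lowers other values in IN.

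Where a gene ID stood in several entries, these were added up (17 to 21 entries per library), and the 92 ERCC entries were left out. The files of 0 library pairs were identical. Scaling was by the median of ratios over tested genes, with factors of 1.64 to 2.68 in IP and 0.374 to 0.530 in IN, before log2(value + 1). The filter asked for a mean of at least 1 deposited TPM over the 8 IP or the 8 IN libraries. One model per comparison was run over all tested genes (R 4.3.3, limma 3.58.1, lmFit and then eBayes with trend). Tests were two-sided, p-values were adjusted by Benjamini-Hochberg over every tested gene, and the threshold was 0.05. The pool was a block in the comparison of IP with IN, over all pools and in each sex, and in the interaction of fraction with sex. The comparisons of female with male, in IP and in IN, had no block. Tables and figures used Python 3.11.15, pandas 2.3.3, numpy 2.4.6 and matplotlib 3.10.9. Transcript lengths and gene types came from GENCODE M21, which held 53274 of the 53379 gene IDs. The length was the median over a gene's annotated protein-coding transcripts, or over its other transcripts where it had none. Gene coordinates are those of the deposited files.

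The series design text pairs the fractions by pool. Deviations from the group mean correlated between a pool's IP and IN libraries at 0.014, 0.116, 0.198 and 0.413 in female and 0.0067, 0.276, 0.208 and 0.323 in male pools. For female pool 1 and male pool 1 the IN library correlated better with the IP library of another pool of the same sex. The pairing of these pools thus rests on the design text alone. On simulated log2 values over 16099 genes, of 100 genes changed by a log2 of 1 the fit of IP against IN recovered 96 in both sexes, 87 in female and 80 in male pools, female against male 90 in IP and 96 in IN, and the interaction 79. At a log2 of 2 it was 100, 97, 97, 98, 98 and 95. Each run held both sizes of change, and the false calls per run were 13, 9, 11, 12, 7 and 6. The simulated noise was drawn for each library on its own, with no effect of the pool, so the pool block was not tested by it. In these runs 200 genes were changed, whereas in IP against IN 40.5% of all tested genes were called higher and 38.9% lower. The members' median change of IP against IN was 0.53. Their largest female against male difference was 0.51 in IP and 0.448 in IN, and their largest interaction was -0.57. Recovery of changes under a log2 of 1 was not tested.

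The members and gene lists were chosen with earlier results of these data known. Members named were, per complex, those with the 3 largest and 3 smallest changes and the 2 highest levels, the core subunits, the isoform families, the smallest p in the sex comparisons, and those under the filter. One gene that the rule names is not reported here. Ndufa12 was named after its values were seen. Alternatives were other pseudocounts, filters and scalings, a length correction, the fits with and without the block, and leaving out each pool.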

Additional observations from a re-analysis of the deposited data

Results flagged for a closer look

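In 212 groups of 4 libraries the highest or lowest library was compared with the other 3 by Dixon's test, and 11 stood apart, where chance gives about 5% of groups. In the IN libraries Atp5g1 was at 15.1 scaled TPM in female pool 4, against 54.9 to 63.1 in the other female pools, and at 13.8 in male pool 2, against 55.9 to 63.6. Cox4i1 was at 182 in male pool 3 IN, against 336 to 367, and Cox6b1 at 182 in female pool 4 IN, against 137 to 142.

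Among IP libraries Ndufa4 was at 296 scaled TPM for male pool 4, with the other male pools at 216 to 226, and Cox7a1 at 1.70 in male pool 2, against 2.17 to 2.22. Cox7a2 was at 226 in female pool 3, against 173 to 182, and Uqcr10, a small subunit of complex III, was at 139 in female pool 1, against 113 to 117. Female pool 4 had 226 for Ndufb8, against 151 to 164, and 106 for Uqcrc1, against 93.9 to 95.7. The 13 mitochondrially encoded genes summed to 93.5 in male pool 4 IP, against 438 to 506 in the other male IP libraries.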

How the results depend on the processing

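In IP against IN of both sexes, the members called higher numbered 64 to 66 and those called lower 2 when 1 pool was left out, with a median log2 change of 0.50 to 0.55. Both pseudocounts gave 66 higher and 2 lower. Members called lower numbered 5 without the filter on low values, in both sexes together and in each, and 0 with the stricter filter, which leaves Cox7a1 and Cox8b out. In female pools, leaving out 1 pool gave 50 to 59 higher and 2 to 3 lower, and in male pools 59 to 65 higher and 2 lower.

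The scaling had the widest effect, and the cause of each change was not tested. With deposited TPM, which shifted the median of all genes by 1.84, 1 member was lower in all 3 fits, and medians were 2.76 in both sexes, 2.60 in female and 2.93 in male pools. Quantile normalization gave 7, 7 and 5 lower and medians of 0.24, 0.22 and 0.27, with 35 higher in female and 39 in male pools. The median of all genes was then 0.15 in female and 0.16 in male pools, so members stood only 0.07 and 0.11 above it. The protein-coding total gave 6, 4 and 6 lower and medians of 0.29, 0.27 and 0.31. Removing the length trend gave 5 lower in both sexes and 4 in male pools, with medians of 0.35, 0.33 and 0.38. In each sex the share of all calls that were higher was 95.3% and 94.5% with deposited TPM, 60.8% and 61.1% with quantile normalization and 32.8% and 33.1% with the protein-coding total, against 49.4% and 50.1% as reported. With the length trend removed it was 49.1% in female and 49.3% in male pools. Without the filter it was 32.8% in both sexes together. These are shares of all calls and not of all genes tested, so the member counts cannot be set directly against them.

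Some single genes turned their sign. Quantile normalization gave -0.20 for Atp5c1, -0.10 for Cox4i1, -0.16 for Cox7a2l, -0.13 for Ndufb5, -0.092 for Ndufb9, -0.011 for Ndufs1, -0.00297 for Ndufv2, -0.29 for Sdhd and -0.025 for Uqcrc2. The protein-coding total gave -0.10 for Atp5c1, -0.15 for Cox4i1, -0.050 for Cox7a2l, -0.13 for Ndufb5 and -0.23 for Sdhd. Removing the length trend gave -0.027 for Atp5c1, -0.12 for Cox4i1, -0.13 for Ndufb5 and -0.12 for Sdhd. Deposited TPM gave 2.18 for Atp5j, 0.20 for Cox7a1, 2.199 for Sdha, 2.10 for Sdhc and 2.25 for Uqcrh. Leaving out 1 pool gave -0.047 to 0.21 for Cox4i1 (below 0 without female pool 1 or male pool 3), -0.018 to 0.032 for Sdhd (below 0 without female pool 1 or 3 or male pool 4) and -0.11 to 0.10 for Uqcrh (above 0 without female pool 3 or 4 or male pool 2). Of the 66 members called higher, 19 lost that call with quantile normalization, 12 with the protein-coding total, 11 without the length trend and 0 to 2 when 1 pool was left out.

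Without the replicate block the pairing of a pool's libraries is ignored, and 63 members were higher and 2 lower in both sexes, 55 and 2 in females, and 61 and 2 in males. Of the 66 members higher with the block in both sexes together, 3 were lost without it, and it changed no other call of a member there. Female and male pools of the same number share only that number, and same-numbered libraries correlated at -0.30 to 0.10. With that number as a replicate block 0 members were called in IP or in IN, and the interaction without the pool block also called 0. Female against male and the interaction called 0 members in every setting tried. With deposited TPM their medians were -0.20 in IP, 0.12 in IN and -0.31 for the interaction, with quantile normalization -0.02, 0.02 and -0.04, and with the protein-coding total -0.03, 0.02 and -0.04, against -0.07, -0.0041 and -0.06 as reported. Depth is unknown from TPM, so how far it limits the low isoforms cannot be stated.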
